A study of Mus musculus with 576 samples.

Results

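The cells described here are haematopoietic stem cells of LPS-treated mice that were sorted as high for a p27 marker. They were taken by their label as LPS p27 high and kept when they held at least 50000 reads on genes and at least 1000 detected genes. This left 93 of the 96 cells of the group, out of 576 cells in the whole series, of which 547 passed the same limits. Each cell was sequenced as a library of its own from mouse bone marrow of femurs and tibias, and all groups were sorted as CD150+CD48-cKit+Sca1+ cells, which the labels call long-term HSC. The series crosses treatment (control or LPS) with p27 class (high, low or negative), and 3 other groups are used here: control p27 high (84 kept cells), LPS p27 low (90) and LPS p27 negative (92). The labels name no animal, age, strain, LPS dose or time, and do not say how the p27 marker was made. Each group therefore counts as 1 sample, cells are not replicates, and no test between groups was made. Control and LPS cells were deposited in separate tables, so that LPS and any plate or sequencing run that goes with it cannot be told apart.

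p27, the product of Cdkn1b, is an inhibitor of cyclin-dependent kinases and is known to be abundant in cells that rest outside the cell cycle. Haematopoietic stem cells spend most of their time in that state. LPS, a component of the outer membrane of Gram-negative bacteria, is sensed through the TLR4 receptor, whose adaptors Myd88 and Ticam1 lead to NF-kB and to type I interferon. Interferons act through their receptors on antiviral genes, guanylate-binding proteins, chemokines and antigen presentation, and stem cells are known to respond to interferon directly.

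The 93 cells held between 72577 and 1528164 gene reads (median 284633) and 33295314 in all. The 3 cells left out held 3405, 3719 and 7878 gene reads, and the shallowest kept cells 72577 and 81860, so the limit fell in a wide gap. At an equal depth of 50000 reads, drawn at random from each cell, a cell held between 3171 and 5066 genes (median 3992), against medians of 3933 (control p27 high), 3976 (LPS p27 low) and 4897 (LPS p27 negative). Mitochondrially encoded genes took 3.44 to 8.66% of gene reads per cell. Spike-in RNAs took 1.90 to 9.77% of reads in these cells (median 3.86%). The 23 control p27 high cells numbered 1 to 32 stood apart, at 9.02 to 31.4% (median 18.4%), while the 61 numbered 33 to 96 lay at 2.93 to 8.88%. Control cells of the other p27 classes numbered 1 to 32 were also high, and LPS cells of those numbers were not. Results against control p27 high cells are therefore also given without these 23 cells, and the part of the spike-in share in them was not tested. Levels below are reads summed over the kept cells per 1000000 gene reads (CPM). Intervals are exact 95% Poisson intervals of a level, or exact Clopper-Pearson intervals of a share of cells, and cover counting error only, since reads amplified without molecular identifiers are not independent molecules.

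In these cells 20673 genes had a read, 13542 reached 1 CPM and 9474 reached 10 CPM. Detection was uneven. At equal depth 124 genes were read in every cell, 472 in at least 90% of cells, 2278 in 50 to 90%, 4385 in 20 to 50% and 10008 in fewer. Of the genes with 10 CPM or more, 2518 were read in under 20% of cells. The 10 genes with most reads took 12.5% of all gene reads and the 1000 with most reads 52.6%. The ribosomal RNA gene CT010467.1 took 4.27% and the mitochondrial ribosomal RNA mt-Rnr2 3.24%.

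The genes of the sorting gate were present in the proportions of sparse single-cell data. Ly6a, which encodes Sca-1, was read in 94.6% of cells at 1220 CPM, and Kit, the stem cell factor receptor, in 82.8% at 308 CPM. Slamf1, which encodes CD150, was read in 25.8% of cells at 61.2 CPM, and Cd48, used to exclude cells, in 7.53% at 14.4 CPM. Cdkn1b itself lay at 108 CPM and was read in 70.97% of cells (interval 60.6 to 79.9%), against 74.6 CPM in the control p27 high group, 62.9 CPM in the LPS p27 low group and 74.9 CPM in the LPS p27 negative group. Its log2 fold, the difference of log2(CPM + 1), was 0.53, 0.77 and 0.52 against these groups, below the 1 used here to call a gene. The level of Cdkn1b messenger RNA was therefore the highest of the 4 groups here, by less than that limit. How these reads relate to the sorted marker is not known, since the labels do not say how it was made.

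Most genes of the B cell and T and NK cell lists had no read, whereas other blood cell lists were read in part. Of 15 B cell genes 10 had no read, among them Cd79a, Ms4a1 and Pax5, and the median cell held 0 reads of the list per 50000 (0 to 40). Of 15 T and NK cell genes 8 had no read, among them Cd3d, Cd3e, Cd3g and Cd8a, with a median of 0 (0 to 51). Of 17 dendritic cell and macrophage genes 5 had no read, among them Itgax and C1qa, and the median cell held 10 reads (0 to 80). Most of these came from Bst2 at 188 CPM, which is also an interferon-induced gene. The granule genes Camp, Ltf, Ngp, Ctsg and the receptor gene Csf1r had no read, while Lyz2 stood at 525 CPM and Prtn3 at 268 CPM. Of 18 megakaryocyte and platelet genes 2 had no read, and the list gave 1475 CPM. Of 16 erythroid genes 2 had no read, and the list gave 2326 CPM, nearly all from Car2, a carbonic anhydrase gene, at 2202 CPM. A count of 0 of 93 cells allows a share of up to 3.23% of cells with a read.

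Sult1a1, a sulfotransferase gene on chr7:126672865-126676432 of mm10, was higher in both p27 high groups than in the other LPS classes. In LPS p27 high cells it was read in 58.1% of cells (47.4 to 68.2%; 72.04% without equal depth). The cells ran from 0 through a median of 135 to 4031 CPM, and the summed level was 315 CPM (309 to 321). In control p27 high cells it was 354 CPM, in LPS p27 low cells 22.97 CPM and in LPS p27 negative cells 18.4 CPM. Its log2 fold was 3.72 against LPS p27 low and 4.02 against LPS p27 negative, and -0.17 against control p27 high, where the sign differed between sets of cell numbers (0.75 in cells numbered 1 to 32). That set holds the control cells of high spike-in share, in which Sult1a1 lay at 210 CPM, and without them the fold was -0.42. The ranges of single cells overlapped in all comparisons, because part of the cells held no read in each group.

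Cd74, the invariant chain that guides MHC class II molecules, was read in 60.2% of cells (49.5 to 70.2%). The cells ran from 0 through 77.5 to 9699 CPM, and the 10 highest cells gave 71.96% of the level when each cell was weighted equally. The summed level was 858 CPM (848 to 868), against 176 CPM in control p27 high, 197 CPM in LPS p27 low and 135 CPM in LPS p27 negative cells. Without the top cell it was 705 CPM. Cd74 was thus higher here than in each of the 3 other groups, with log2 folds of 2.28, 2.12 and 2.65, and a small number of cells carried most of it.

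H2-Aa, which encodes the alpha chain of a classical class II molecule (chr17:34282744-34287823), was read in 32.3% of cells (22.9 to 42.8%). The median cell held none and the highest 1503 CPM, and the summed level was 116 CPM. Control p27 high cells held 142 CPM, LPS p27 low cells 4.39 CPM and LPS p27 negative cells 23.5 CPM. The log2 folds were 4.43 against LPS p27 low and 2.25 against LPS p27 negative, while that against control p27 high was -0.29 and turned to 0.25 in cells numbered 1 to 32. Without the control cells of those numbers it was -0.25.

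Egr1, an immediate early transcription factor gene, was read in 64.5% of cells (53.9 to 74.2%), from 0 through 30.5 to 3299 CPM. Its summed level was 467 CPM, against 83.5 CPM in control p27 high, 156 CPM in LPS p27 low and 111 CPM in LPS p27 negative cells. Against control p27 high the log2 fold was 2.47, and 2.16 without the control cells numbered 1 to 32. That against LPS p27 low was 1.58, and 0.79 in cells numbered 65 to 96, which is under the limit for a call. The 4 markers were read in overlapping but not identical cells: 31 cells held reads of both Sult1a1 and Cd74 and 14 of neither, while 24 held both Cd74 and H2-Aa and 38 both Sult1a1 and Egr1.

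**Figure D1:**
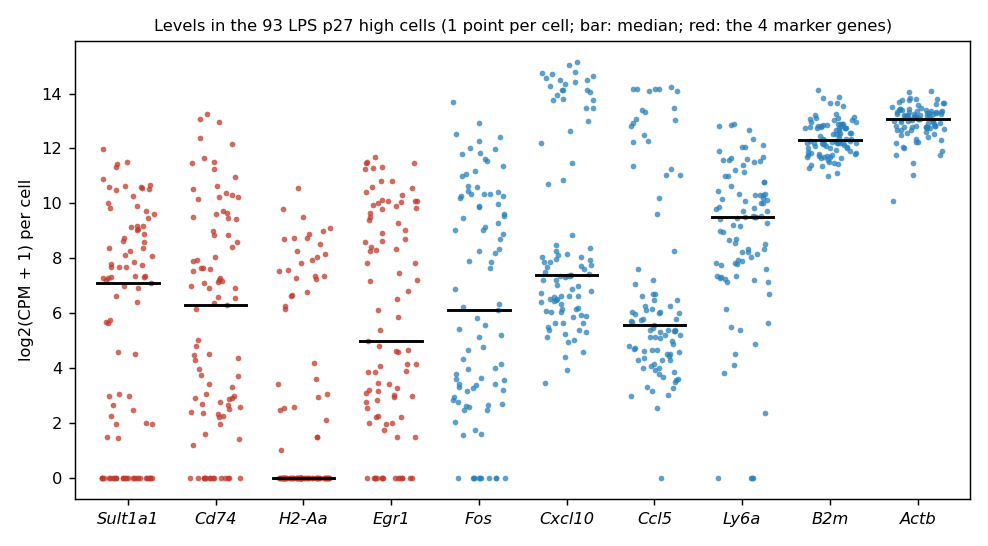
Levels of 10 genes in the 93 LPS p27 high cells as log2(CPM + 1), 1 point per cell, with the median as a bar; the 4 marker genes are red. Actb and B2m form narrow bands, Cxcl10 and Ccl5 split into a large low and a smaller high set of cells, and the median cell of H2-Aa lies at 0.

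Genes whose counts ranked the cells most like each marker were taken from all genes read in at least 20% of cells, by Spearman correlation at equal depth over the 93 cells. These values describe cells of 1 sample that share a fixed total, and carry no test. For Sult1a1 they were Ifitm1 (rho 0.56), Txnip (0.46), the nuclear RNA Malat1 (0.45), the transcription cofactor Lmo2 (0.44) and Mllt3 (0.42). For Cd74 they were Shisa5 (0.71), Zbp1 (0.64), Trim30a (0.64), Oasl2 (0.63) and Oas1g (0.62), of which Zbp1, Trim30a and Oasl2 were in the list of interferon-induced genes. For H2-Aa they were H2-Ab1, its beta-chain partner (0.48), Foxn3 (0.42), B3galnt2 (0.36), Cd74 (0.36) and Mrpl4 (0.34). For Egr1 they were Ier2 (0.61), Fos (0.50), H3f3b (0.48), Jun (0.46) and Iqgap2 (0.45), of which Ier2, Fos and Jun are immediate early genes like Egr1 itself.

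Because the cells fell into a low and a high set in interferon-induced reads, described below, the correlations were also computed within the 64 low and the 29 high cells. For Cd74 and Shisa5 rho was then 0.41 and 0.45, and for Cd74 and Oas1g 0.14 and 0.50, so part of the value over all cells lay between the sets. For H2-Aa and Cd74 it was higher within the sets (0.58 and 0.60) than over all cells. Sult1a1 and Ifitm1 had 0.46 and 0.66, whereas Sult1a1 and Lmo2 had 0.37 and 0.004 and Egr1 and Fos 0.45 and -0.075. Egr1 and Cd74 had a rho of -0.36 over all cells but -0.12 and 0.07 within the sets.

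The most abundant messenger RNAs were ranked per exon length, as TPM, the length-scaled share of the summed reads per 1000000. B2m, the light chain of MHC class I, led with 17881 TPM, followed by the actin gene Actb (8526 TPM), the antiviral membrane protein gene Ifitm3 (7877 TPM), the serine protease inhibitor gene Serpina3g (7847 TPM), and the chemokine genes Cxcl10 (6580 TPM) and Ccl5 (6350 TPM). Among the first 30 protein-coding nuclear genes, 8 encode ribosomal proteins or translation factors, such as Rpl4 (4570 TPM) and Eef1a1 (2996 TPM). Interferon-linked genes held further places with H2-K1 (3772 TPM), Ifitm1 (3257 TPM), H2-D1 (2859 TPM), Ly6a (2612 TPM), Ifitm2 (2125 TPM) and Ly6e (1920 TPM). The leading genes differed in how evenly they were spread. B2m and Actb were read in every cell, with 2063 to 18008 CPM for B2m (median 5075), whereas Ccl5 was read in 84.9% of cells at equal depth and ran from 0 through 46.4 to 19423 CPM.

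Slc34a2, a sodium-phosphate cotransporter gene known from epithelia, also stood in this list at 3152 TPM (6125 CPM) and was read in every cell. It was higher still in control p27 high cells, at 13212 CPM. Its log2 fold of -1.11 passed the limit, but was -0.93 when cells were weighted equally, -0.98 with TMM scaling and 0.30 in cells numbered 1 to 32. In the control cells of those numbers, where the spike-in share was high, it lay at 5242 CPM, and without them the fold was -1.46. Over the 93 cells its level went with the share of spike-in reads (rho 0.47). The part of either in this level was not tested.

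For 5 of the interferon-linked genes that lead by level or by spread between cells, the 250 bases before the gene start are shown (RefSeq, GRCm38.p6), because interferon is known to act on such genes through the response element GAAANNGAAA, searched here on both strands. Matches are in capitals, and those of the opposite strand read TTTCNNTTTC. The stretches lie at chr5:92348890-92349139 (minus strand) for Cxcl10, chr19:34640639-34640888 (plus strand) for Ifit1, chr3:142620413-142620662 (plus strand) for Gbp2, chr2:122147437-122147686 (plus strand) for B2m and chr12:26456453-26456702 (minus strand) for Rsad2.
Cxcl10: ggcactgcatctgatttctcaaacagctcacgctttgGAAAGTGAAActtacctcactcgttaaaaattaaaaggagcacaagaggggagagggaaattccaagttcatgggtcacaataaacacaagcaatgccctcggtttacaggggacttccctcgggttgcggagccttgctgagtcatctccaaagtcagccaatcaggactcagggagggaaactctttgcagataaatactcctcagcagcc
Ifit1: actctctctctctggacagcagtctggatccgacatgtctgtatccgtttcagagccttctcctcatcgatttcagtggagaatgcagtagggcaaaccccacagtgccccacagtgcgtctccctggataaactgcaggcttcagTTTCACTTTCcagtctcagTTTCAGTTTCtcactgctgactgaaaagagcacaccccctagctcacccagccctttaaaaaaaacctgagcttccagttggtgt
Gbp2: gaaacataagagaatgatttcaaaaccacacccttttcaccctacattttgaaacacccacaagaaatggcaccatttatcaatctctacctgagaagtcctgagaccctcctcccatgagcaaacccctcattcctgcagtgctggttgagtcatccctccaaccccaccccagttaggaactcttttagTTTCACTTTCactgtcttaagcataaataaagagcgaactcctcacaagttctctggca
B2m: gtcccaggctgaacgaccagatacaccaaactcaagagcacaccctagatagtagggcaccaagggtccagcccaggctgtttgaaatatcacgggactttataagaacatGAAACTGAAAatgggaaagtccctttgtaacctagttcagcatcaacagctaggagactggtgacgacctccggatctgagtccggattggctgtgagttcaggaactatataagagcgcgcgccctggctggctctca
Rsad2: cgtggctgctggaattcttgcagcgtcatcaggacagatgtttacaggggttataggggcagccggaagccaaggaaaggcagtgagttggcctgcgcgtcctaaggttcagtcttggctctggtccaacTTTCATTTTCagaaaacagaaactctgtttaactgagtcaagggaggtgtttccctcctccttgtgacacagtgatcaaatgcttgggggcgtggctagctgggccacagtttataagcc
Ifit1 held 2 matches and the other genes 1 each. The 5 genes were picked by hand and do not stand for all leading genes. Cmpk2, Cxcl9, Ifitm3 and H2-K1 held no match. Of the first 25 genes by spread, 16 had a promoter to search and 6 of these (37.5%) held one. The match ended 203 bases before the start in Cxcl10, 49 in Gbp2, 129 in B2m and 110 in Rsad2, and in Ifit1 the 2 matches ended 94 and 75 bases before it.

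Over all 27025 genes with a promoter in the RefSeq table, 3.46% held such a match in this window. It was found in 12 of 28 interferon-induced genes (42.9%), in 11 of 15 genes of the list of interferon-gamma-linked GTPases and chemokines (73.3%), in 2 of 14 MHC class I and peptide loading genes, in 1 of 22 NF-kB and inflammatory genes and in 0 of 7 MHC class II genes. The lists were partly made of genes known for this element, a match is not a binding site, and genes without an entry in the table were not searched.

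Cell-to-cell spread was measured as the squared coefficient of variation at equal depth, without the highest cell of the gene, and divided by the median of the 200 genes of nearest mean. This spread ratio is 1 for a gene that varies like others of its level. It was measured for 6514 genes with at least 20 CPM and reads in at least 20% of cells, and reached 2 in 181 of them (2.78%). Spike-in RNAs, which carry technical noise only, had a median squared coefficient of variation of 0.171 (0.0144 to 2.19 over 21 spike-ins). It was 1.99 over 3340 genes. Both sets had a mean of 20 or more reads after scaling, but their means were not matched.

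The genes with the widest spread were mostly inflammatory. Cxcl11, a ligand of the receptor CXCR3, had a spread ratio of 15.2, followed by Cmpk2, a mitochondrial nucleotide kinase (11.8), the chemokine Ccl5 (10.95), Cd74 (10.1), the chemokine Ccl9 (9.77), Rgs2, a brake on G-protein signalling (9.68), and Rsad2, which encodes the antiviral enzyme viperin (9.21). Of the first 25 genes, 15 were members of the interferon-induced, GTPase and chemokine, or NF-kB lists. Of the 75 members of these 3 lists whose spread was measured, 42 reached a ratio of 2, against the background of 2.78%. The other early places included Neurl3, an E3 ubiquitin ligase (7.89), Cd69, an early activation receptor (6.85), Fos (6.62) and Rgs1 (6.32). Of all 181 genes, 108 were in none of the 31 lists.

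Some of these values need their gene model beside them. Cxcl11 is annotated as a polymorphic pseudogene and overlaps Art3 on the other strand, and Gm10851 (spread ratio 8.10) is annotated as antisense to Pfkfb3. As the strand setting of the counting is not given in the sources used here, reads of such pairs cannot be told apart. In Gm10851 a single cell held 44.2% of the reads, and in Mir6236 (5.03) a single cell held 59.8%. Tgtp1 and Tgtp2 are near-identical copies between which reads may be split.

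At the other end, the steadiest gene was mt-Rnr2 with a spread ratio of 0.07. The next 9 were processed pseudogenes, among them Rps10-ps2, Rpl9-ps7, Rpl31-ps18 and Rps6-ps4, whose reads may come from their parent genes. Among protein-coding genes of high level, Eef1a1 had a ratio of 0.10, Rpl4 0.12, Actb 0.26, Hsp90ab1 0.30 and B2m 0.45. Of the other markers, Egr1 had a ratio of 4.34 and Sult1a1 of 3.67, whereas H2-Aa had 1.62, and 1.78 to 2.19 under the 3 alternative ways of measuring spread, of which 1 passed 2.

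**Figure D2:**
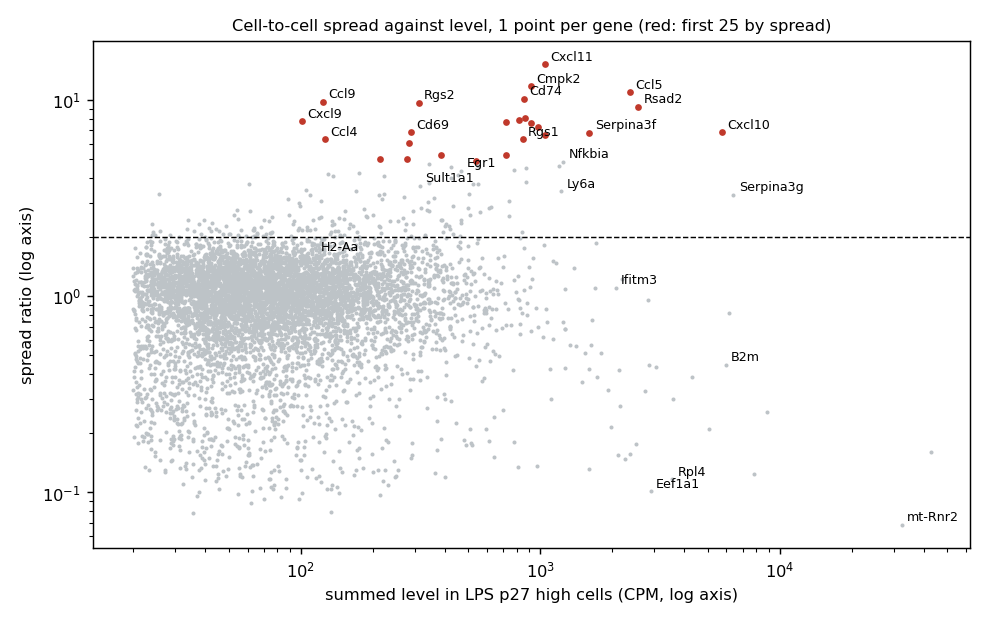
Spread ratio against summed level in the 93 LPS p27 high cells, both on log axes, 1 point per gene for the 6514 genes measured; the dashed line marks a ratio of 2 and the first 25 genes are red. Chemokine and interferon-induced genes such as Cxcl11 (15.2), Ccl5 (10.95) and Cxcl10 (6.83) lie above the cloud and Eef1a1 (0.10) and Rpl4 (0.12) below it.

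Cxcl10 (chr5:92346638-92348889), which attracts CXCR3-bearing lymphocytes, shows the pattern at the level of single cells. At equal depth 92 of the 93 cells held a read, but 43 held 10 or more and 26 held 100 or more. The cells ran from 9.92 through a median of 166 to 36162 CPM, and the 10 highest cells gave 54.3% of the level when each was weighted equally. Ccl5 (chr11:83525778-83530518) was alike, with 79 cells with a read, 24 with 10 or more and 20 with 100 or more. In control p27 high cells Cxcl10 lay at 1.52 CPM with a read in 1.19% of cells and Ccl5 at 1.57 CPM with a read in 4.76%. Most LPS p27 high cells thus held Cxcl10 reads, the majority at a low level and a smaller set at a very high one. Within the low set the level differed with depth. The cell of 1528164 gene reads held 22.9 CPM of Cxcl10 and 7.20 CPM of Ccl5, and a cell of 100817 held 357 and 89.3 CPM. The shares of cells with a read rest largely on such low levels, whose source was not tested.

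The same split was seen in the summed reads of 40 interferon-induced genes. Per 50000 reads a cell held between 102 and 3819 (median 365), and had reads of 9 to 39 of the 40 genes (median 21). Control p27 high cells held between 35 and 588 (median 208). In LPS p27 high cells, 29 of 93 lay above 588 (31.2%; 21.98 to 41.6%), with a gap from 531 to 724 and no cell between. Of these 29 cells, 18 also lay above 1438, the highest control cell of any p27 class. The share above 588 was 55.6% in LPS p27 low cells (44.7 to 66.04%) and 47.8% in LPS p27 negative cells (37.3 to 58.5%). The p27 high class therefore had the lowest share of the LPS classes, and the interval of its share overlapped that of the negative class; with 1 sample a class the difference was not tested. The median cell, which belongs to the lower set, held 365 such reads against 208 in control p27 high cells. Within the 64 cells of the lower set, these reads had a rho of 0.46 with long-term and dormant HSC genes, shared genes left out. It was 0.38 with HSC transcription factors, 0.29 with the GTPase and chemokine list and 0.07 with the NF-kB list. The source of the higher median was not tested.

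By cell number in the labels, 11 of 29 cells numbered 1 to 32 lay above the limit, 10 of 32 numbered 33 to 64 and 8 of 32 numbered 65 to 96. Over the 93 cells the interferon-induced reads had a rho of 0.05 with depth and -0.11 with the share of spike-in reads. Their rho with the number of genes per cell at equal depth was -0.41, and its part in the split was not tested. These values mix the low and high sets and were not computed within each. For example, a low-set cell of 956800 gene reads and 2.28% spike-in reads held 102 interferon-induced reads. Another low-set cell, of 203703 gene reads and 7.28%, held 520. Whether the score differs with depth or spike-in share within the low set was not tested.

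**Figure D3:**
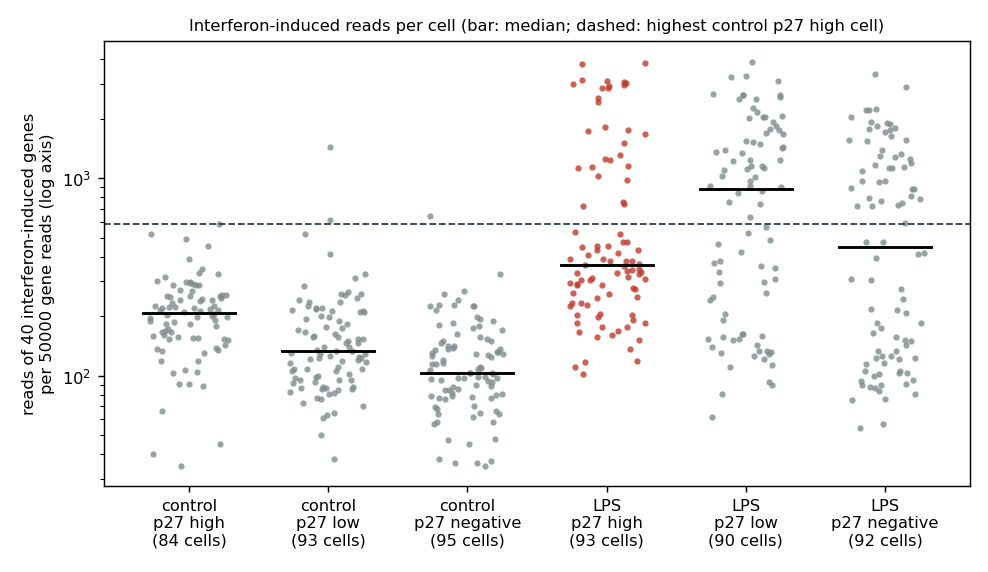
Reads of the 40 interferon-induced genes per 50000 gene reads in each kept cell of the 6 groups, on a log axis, with the median of each group as a bar and the highest control p27 high cell (588) as a dashed line; 1 control p27 negative cell at 0 is not drawn. LPS p27 high cells, in red, divide into 64 cells at or below the line and 29 above it.

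Other genes fell on both sides of this limit in different ways. Of the 29 cells above it, 28 held reads of Cd74, 29 of Cxcl10, 28 of Ccl5, 17 of Il6, 14 of Fos, 11 of Sult1a1, 11 of Egr1 and 7 of H2-Aa. Of the 64 cells at or below it, 28 held reads of Cd74, 63 of Cxcl10, 51 of Ccl5, 3 of Il6, 48 of Fos, 43 of Sult1a1, 49 of Egr1 and 23 of H2-Aa. Of the 20 cells with Il6 reads, 17 thus lay above the limit, and of the 54 with Sult1a1 reads 11 did. These are counts of cells from 1 sample and were not tested. For Cxcl10 and Ccl5 in the cells at or below the limit, they rest largely on the low levels described above, whose source was not tested.

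Il6, the gene of interleukin 6, is an NF-kB target. It was read in 20 of the 93 cells (21.5%; 13.7 to 31.2%), of which 15 held 10 or more reads, and reached 3149 CPM in the highest cell. Its summed level was 222 CPM, of which the 10 highest cells gave 85.3% when each was weighted equally. In LPS p27 low cells it was 65.7 CPM and in LPS p27 negative cells 29.1 CPM, and no read was found in control p27 high cells. Against a floor of 3 counts over that group, the level was at least 1609-fold higher. The reads of all 28 NF-kB and inflammatory genes ran from 17 through 76 to 2347 per 50000, and 26 cells lay above 272, the highest control p27 high cell. This was 27.96% of cells, against 41.1% of LPS p27 low and 30.4% of LPS p27 negative cells.

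Among the other members of this list, Nfkbia, the inhibitor that NF-kB induces as feedback, ran from 2.71 through 305 to 8926 CPM, at 1250 CPM in all. Icam1, an adhesion receptor, was read in 45.2% of cells at 345 CPM, and Ccl4 in 38.7% at 126 CPM. Nfkb1 (347 CPM) and Rela (269 CPM), which encode subunits of the factor, had spread ratios of 1.43 and 1.33, against 4.85 for Nfkbia and 4.71 for Icam1.

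MHC class II genes, which present antigen to helper T cells, differed widely in level. The 10 genes gave 1436 CPM, against 810 CPM in control p27 high, 470 CPM in LPS p27 low and 379 CPM in LPS p27 negative cells, with Cd74 as the largest contributor. Without Cd74 the other 9 genes gave 578 CPM, against 634, 274 and 244 CPM in these groups, so that the higher sum than in control p27 high cells rested on Cd74. H2-Ab1 was read in 37.6% of cells at 149 CPM, H2-Eb1 in 13.98% at 29.9 CPM, and H2-DMa, which loads peptides, in 67.7% at 183 CPM. The median cell held 28 reads of the list per 50000, and 5 cells lay above 307, the highest control p27 high cell. No LPS p27 low, LPS p27 negative or other control cell lay above it. Of these 5 cells, 4 also lay above the interferon limit. These reads include Cd74, which stood at 5325 to 9699 CPM in those 4 cells and at 2918 CPM in the other. Cells were not counted without Cd74. The rho of the list with the interferon-induced list was 0.34 over the 93 cells, 0.12 in the 64 and 0.56 in the 29. H2-Aa and H2-Ab1 were read together in 20 cells, H2-Aa alone in 10 and H2-Ab1 alone in 15. Ciita, the master regulator of these genes, was at 3.21 CPM and read in 6.45% of cells. MHC class I genes were steady by comparison, with 388 to 1845 reads per 50000 in every cell, and Tap1, the peptide transporter (562 CPM), was the only member with a spread ratio of 2 or more (2.68).

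Immediate early genes, which are known to switch on within minutes of many stimuli, also varied widely between cells. Their 26 genes gave 19 to 1275 reads per 50000 (median 224). Of 18 measured members 11 had a spread ratio of 2 or more, against 2.78% of all genes measured. Fos was at 1044 CPM, from 0 through 68.4 to 13222 CPM, and Dusp1, a phosphatase that ends MAP kinase signalling, at 551 CPM. The levels of Fos differed between cell numbers, with 1259, 783 and 1218 CPM in the 3 sets of 32 numbers. In control p27 high cells Fos was at 1739 CPM, a log2 fold of -0.74. This was 0.85 in cells numbered 1 to 32 and -1.08, past the limit, without the control cells of those numbers.

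**Figure D4:**
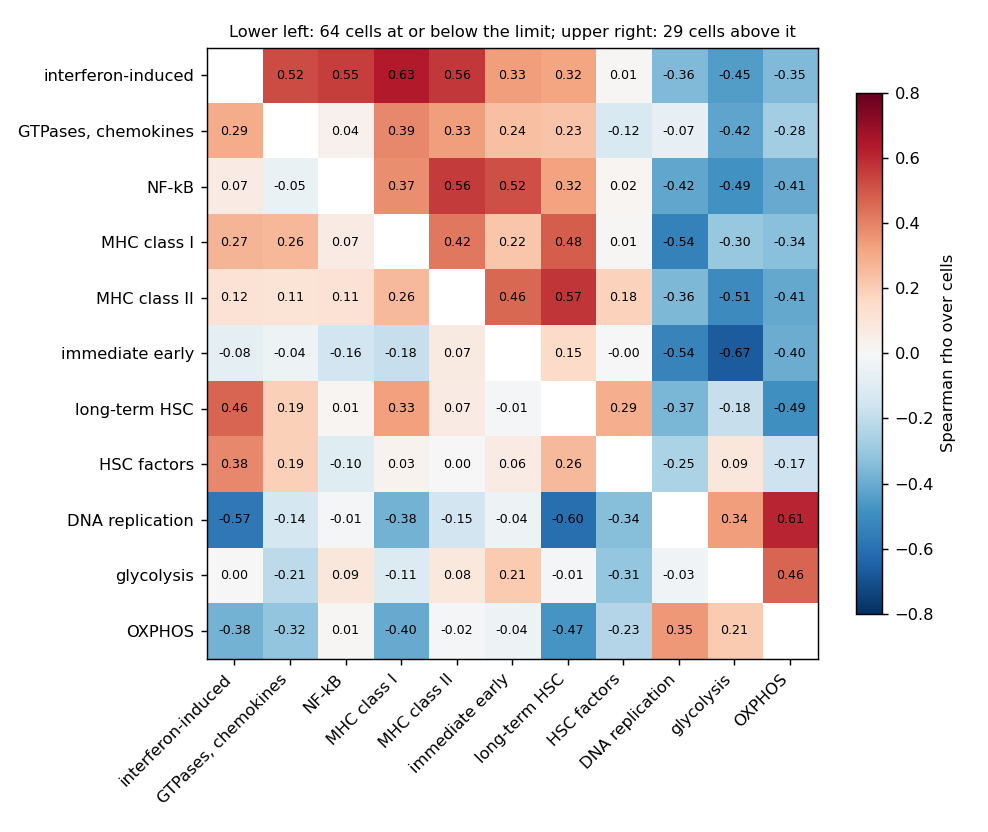
Spearman correlations between gene lists over LPS p27 high cells, from reads at equal depth; the lower left triangle uses the 64 cells at or below the interferon limit and the upper right the 29 cells above it. In both triangles DNA replication is negative with the interferon-induced list (-0.57 and -0.36) and with the long-term HSC list (-0.60 and -0.37).

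Over all 93 cells the interferon-induced list went with the GTPase and chemokine list (rho 0.76) and the NF-kB list (0.68). Within the 64 cells below the limit these were 0.29 and 0.07, and within the 29 above it 0.52 and 0.55. DNA replication genes, of which Mcm6 was the highest at 840 CPM, had a negative rho with the interferon-induced list in both sets (-0.57 and -0.36). They also had one with the 43 long-term and dormant HSC genes (-0.60 and -0.37). The latter list shares Ifitm1 with the interferon-induced list. All lists share the same fixed total per cell, which by itself lets one list be lower where another is higher, and no test was made.

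The comparison with control p27 high cells asked which genes differed with LPS within the p27 high class. A gene was called when its log2 fold was 1 or more and its level 10 CPM or more in the higher group. Of 10343 genes tested, 7.64% were called higher and 12.7% lower after LPS, and the median log2 fold of all genes was -0.11. Of 39 interferon-induced genes 35 were called higher and 0 lower, with a median of 2.95. Of 20 GTPase and chemokine genes 19 were higher (median 2.93), of 26 NF-kB and inflammatory genes 21 (median 2.25), and of 7 acute-phase and Serpina3 genes 6 (median 4.67). With genes of at most 3 control reads at their bound or plain ratio, these medians were the same. Relative to the shift of all genes, these lists stood well above it, while MHC class I (1 of 16 higher, median 0.34), MHC class II (1 of 8, median -0.14) and the housekeeping list (0 of 14, median 0.06) did not. Without the control cells numbered 1 to 32, of which the spike-in share was high, 9.22% of genes were called higher and 13.2% lower. The 4 lists first named then had 35 of 39, 19 of 20, 24 of 26 and 6 of 7 genes higher, with medians of 2.77, 3.38, 2.18 and 4.45. Of the genes called with all control cells, 667 of 790 higher and 977 of 1315 lower ones were also called without these.

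By the naming rule the leading genes higher after LPS were Cxcl10 (5745 against 1.52 CPM), Ccl5 (2363 against 1.57 CPM), Cxcl11, Ifit3 and Il6. Cxcl11 had no control read, and its 1047 CPM were at least 7576-fold above the floor of 3 counts. Ifit3, an antiviral protein gene, had 1 control read, and the ratio of its levels was 6170 with a counting interval of 1107 to 243737. The leading genes lower after LPS were Ankrd13d (2.31 against 70.3 CPM), the myosin light chain gene Myl10 (4.66 against 41.2 CPM), Pygm, a glycogen phosphorylase (10.9 against 92.4 CPM), 2610008E11Rik (11.4 against 74.6 CPM) and Lurap1 (2.52 against 20.4 CPM). Each of them was read in 3.23 to 7.53% of LPS p27 high cells and in 21.4 to 36.9% of control p27 high cells. Long-term and dormant HSC genes were called lower in 12 of 40 and higher in 2, with a median of -0.55. Without the control cells numbered 1 to 32 these were 13 lower and 1 higher of 41, with a median of -0.49. The 5 leading lower genes then had folds between -4.09 and -2.66, still past the limit. Txnip, an inhibitor of thioredoxin, was among the lower ones at 1033 against 2236 CPM, and Ly6a among the higher ones at 1220 against 331 CPM.

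**Figure D5:**
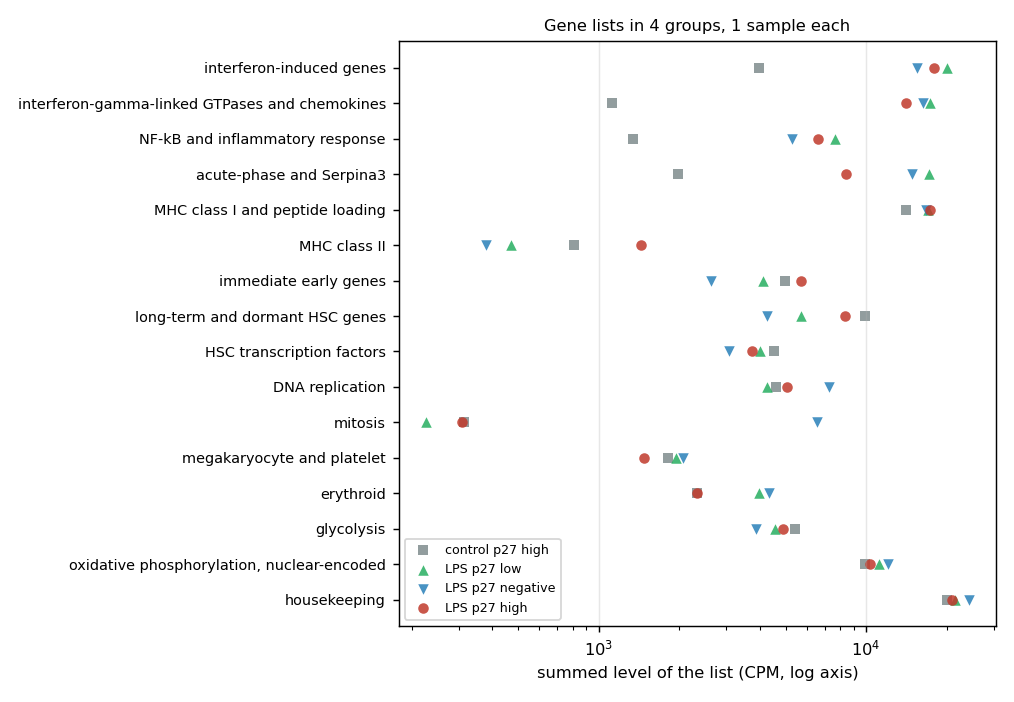
Summed levels of 16 gene lists in CPM on a log axis, in LPS p27 high cells (red circles) and 3 other groups, each 1 sample. The interferon-induced list lies at 17985 CPM in LPS p27 high against 3976 CPM in control p27 high cells, and MHC class II, of which Cd74 gives 858 CPM in LPS p27 high cells, at 1436 against 810 CPM.

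The comparison with LPS p27 low cells asked how the p27 high class differed from its nearest class under the same treatment. Of 10017 genes tested, 11.7% were called higher and 6.24% lower in p27 high cells. In summed level 0 of 39 interferon-induced genes were higher and 1 lower, with a median of -0.25. Cell by cell the classes lay further apart, with 365 such reads in the median p27 high cell against 879.5, and 31.2 against 55.6% of cells above the interferon limit. MHC class II genes were higher in 6 of 8 (median 1.72), long-term and dormant HSC genes in 13 of 36 (median 0.68), with 2 lower. Megakaryocyte and platelet genes were lower in 10 of 14 (median -1.25) and higher in 2, and Pf4, a platelet chemokine, was at 67.6 against 403 CPM. Erythroid genes were lower in 4 of 8 and higher in 1. Mitosis genes, sparse in both classes (308 against 226 CPM), were higher in 4 of 8 and lower in 1, with a median of 0.96. That median ran from -1.26 to 1.47 under the alternatives. DNA replication genes were higher in 4 of 30 and lower in 0 (median 0.38), a share near that of all genes called higher. Serpina3g was lower by 1.16 on the log2 scale (6404 against 14294 CPM), a call that was just lost in cells numbered 33 to 64 (-0.99).

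The leading genes higher than in LPS p27 low cells were H2-Aa, Sult1a1, Calcrl, a receptor of the adrenomedullin family (54.7 against 4.14 CPM), the meiotic cohesin gene Rec8 (55.4 against 3.82 CPM) and the hormone receptor gene Lhcgr (94.8 against 6.77 CPM). The leading lower genes were Mfsd2b, a lipid exporter of erythroid cells and platelets (6.70 against 134 CPM), the erythroid and megakaryocyte factor Gata1 (8.95 against 130 CPM), Cxcl9 (101 against 724 CPM), Slc14a1 (27.2 against 172 CPM) and the platelet glycoprotein gene Gp5 (10.1 against 68.3 CPM). Cxcl9 was read in a similar share of cells in both classes, 40.9 and 47.8%, although its summed level differed.

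The comparison with LPS p27 negative cells set the class against cells of which 91.3% held more mitosis reads than any control p27 high cell. Of 10049 genes tested, 12.1% were called higher and 7.11% lower in p27 high cells. All 30 mitosis genes were lower, with a median of -4.81, and 0 were higher. The leading lower genes were Ccnb2, which encodes cyclin B2 (2.22 against 407 CPM), Ube2c, a ubiquitin-conjugating enzyme of mitotic exit (1.502 against 268 CPM), the mitotic kinase Plk1 (1.02 against 186 CPM), Cenpf (0.66 against 109 CPM) and Pimreg (0.60 against 93.6 CPM). In LPS p27 high cells the median cell held 9 mitosis reads per 50000 (0 to 112), and 3 cells lay above the 67 of the highest control p27 high cell. DNA replication genes were lower in 10 of 30 (median -0.72).

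Higher than in LPS p27 negative cells were Sult1a1 (315 against 18.4 CPM), Tmem37 (42.7 against 2.08 CPM), Chrnb1, a subunit of the muscle acetylcholine receptor (65.4 against 4.43 CPM), Ccl9 (124 against 9.94 CPM) and Ldhd, a D-lactate dehydrogenase (93.5 against 7.69 CPM). Of the Ccl9 level, the 10 highest cells gave 94.3% when each was weighted equally. Long-term and dormant HSC genes were higher in 18 of 36 (median 1.01) with 1 lower, MHC class II genes in 5 of 8 (median 1.73) and immediate early genes in 11 of 19 (median 1.11). In summed level 4 of 39 interferon-induced genes were higher and 0 lower, with a median of 0.13. The share of cells above the interferon limit went the other way, at 31.2 against 47.8%, with median cells of 365 and 446 such reads. LPS p27 negative cells held more genes at equal depth than p27 high cells, and the part of this in the comparison was not tested. The 3 comparisons share the same 93 cells, and each is given by its own values.

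Genes of the LPS receptor path were sparse. Myd88, the main adaptor, was read in 54.8% of cells at 153 CPM, and at 60.5 CPM in control p27 high cells. Tlr2, a receptor for bacterial lipoproteins, was at 77.3 CPM, and Lbp, the LPS-binding protein gene, at 125 CPM, against 103 CPM in control p27 high, 11.4 CPM in LPS p27 low and 31.4 CPM in LPS p27 negative cells. Lbp was read in 33.3% of LPS p27 high cells, with a median cell of 0. Of the list, 2 of 12 genes were called higher and 2 lower against control p27 high cells, where 7.64 and 12.7% of all genes were. Without the control cells numbered 1 to 32 the counts were 2 and 1 of 11, against 9.22 and 13.2% of all genes.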

How the data were processed

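Single sorted cells were measured, 96 in each of 6 groups, of which LPS p27 high is described here. The authors deposited raw counts of reads per gene and spike-in RNA, aligned with GSNAP to mm10 and counted with HTSeq 0.6.0, per the submitters' processing notes. The amplification followed Picelli and colleagues with Nextera XT libraries, per the labels' protocols. The sources used here give no annotation release, strand setting or read filter. Counts in the summary entries that name no gene stayed out of all totals.

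Symbols, exon lengths and mm10 coordinates (1-based) came from GENCODE M21, which named 45143 of 46078 gene IDs. Kept cells had at least 50000 gene reads and 1000 genes. Levels were summed counts per 1000000 gene reads (CPM), per exon length (TPM) when genes were compared. Log2 folds were taken after adding 1 CPM, and a gene was tested when it had 10 CPM in either group. Shares, spread and correlations used counts thinned to 50000 reads per cell. No clustering was done, no doublet caller was run and no limit was set on mitochondrial reads. Columns of no mapped sample numbered 0. Steps that run across genes were tested on simulated data. Used were Python 3.11.15, numpy 2.4.6, scipy 1.17.1, pandas 2.3.3, R 4.3.3 and edgeR 4.0.16 (TMM scaling only).

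Of 638 listed genes 637 were matched by symbol. Named were the 30 genes of highest TPM, the 25 of widest and 10 of least spread, the markers with their 5 most alike genes, up to 5 leading members of each list and those with a spread ratio of 2 or more, the sorting gate, and in each comparison the 5 genes each way whose smallest fold among summed, cell-weighted and top-cell-free levels was largest. Names outside this rule (genes given at 0, Ciita, H2-Eb1 and Rela) were chosen after their values were seen. The members and lists were chosen with earlier results of these data known. Alternatives covered cell limits, equal cell weights, the top cell, totals without mitochondrial genes, TMM, the added CPM, the low-count filter, cell numbers, the thinning depth and, added after seeing the data, leaving out control cells numbered 1 to 32.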

Additional observations from a re-analysis of the deposited data

How the results depend on the processing

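Counts of called genes depended on the low-count filter and on how many cells were summed. Against control p27 high, 790 genes were higher and 1315 lower; without the filter these were 1678 and 2264, and from cells numbered 1 to 32, 33 to 64 and 65 to 96 alone 1869, 1757 and 1542 higher and 2545, 2138 and 2006 lower. Against LPS p27 low, 1172 higher and 625 lower became 2257 and 1376 without the filter, and 1981, 1956 and 1958 higher and 1542, 1348 and 1369 lower in the 3 sets of cells. Against LPS p27 negative, 1216 higher and 714 lower became 2203 and 1477 without the filter, 1993 higher in cells 1 to 32, and 1534, 1500 and 1376 lower in the 3 sets. Fewer cells were summed in each set, and the unfiltered counts hold genes of few reads. Single genes were followed under the alternatives for 18 genes a comparison. Of their 34 folds past the limit, 1 took the other sign, that of Slc34a2 against control p27 high (-1.11, and 0.30 in cells 1 to 32); the cause was not tested. Without the control cells numbered 1 to 32, an alternative chosen after seeing the data, 955 genes were higher and 1370 lower. TMM scaling moved the median fold of all genes against control p27 high from -0.11 to 0.03 and the share of calls that were higher from 37.5 to 47.4%. Genes with a spread ratio of 2 or more numbered 181, and 296 with every kept cell; 22 of the first 25 genes at 50000 reads were also among the first 25 at 200000. The share of cells above the interferon limit was 31.2%. It was 19.4% against the highest control cell of any class and stayed within its interval under the other 8 alternatives; all 9 were chosen after seeing the data. Cells were summed or counted within 1 sample a group, so depth limits single genes while the number of animals, which is unknown, limits every comparison. No paired analysis was possible because no result comes from a test and the numbers in the labels only name cells.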

Other observations

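Oxidative phosphorylation genes were read more widely in LPS p27 high cells than glycolysis genes. The 42 nuclear-encoded genes of oxidative phosphorylation gave 279 to 869 reads per 50000 (median 511). Of their 39 measured members 0 reached a spread ratio of 2, a count near the background of 2.78% of genes. The median cell held reads of 35 of these 42 genes, and of 11 of the 22 glycolysis genes. Of glycolysis genes 0 of 17 measured members reached a ratio of 2, also near that background. Ldha, lactate dehydrogenase A, was read in every cell at 1273 CPM. The heat shock and stress list held 2 such genes among 13, Gadd45b (ratio 2.57, 187 CPM) and Asns (2.24, 159 CPM), while Hsp90ab1 and Hspa8 were read in every cell.

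The D-type cyclin Ccnd2 (884 CPM) and its partner Cdk4 (737 CPM) were read in 97.8 and 100% of cells. Cdk6, which is known to promote the exit of stem cells from rest, was read in 90.3% at 462 CPM. Cdk6 was lower than in LPS p27 low cells (1038 CPM, log2 fold -1.17) and close to control p27 high cells (334 CPM, 0.47). Cdkn2a and Cdkn2b had no read in any of the 93 cells. Lcn2, which encodes lipocalin 2, lay at 106 CPM, but 10 cells gave 99.6% of it when cells were weighted equally, and its level was 70.6, 194 and 1.61 CPM in the 3 sets of cell numbers.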
